A study of Mus musculus with 5 samples.

Results

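The genes described here encode small nucleolar RNAs (snoRNAs) and small Cajal body RNAs (scaRNAs). They were chosen by gene symbol (Snora, Snord or Scarna followed by a digit, or Rnu3), which gave 160 of the 51912 genes listed. They comprise 99 Snord, 42 Snora and 9 Scarna genes and 10 Rnu3 entries. The symbol rule leaves out 1399 other genes annotated as snoRNA or scaRNA, of which 96 had any count. The chosen genes held 70.1% of all expected counts assigned to snoRNA and scaRNA genes.

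Total RNA was sequenced from the dorsolateral prostate of male mice aged 3 months. All 5 mice carried Ghr flox/flox, that is, loxP-flanked alleles of the growth hormone receptor gene Ghr. The 3 controls lacked Cre, and 2 mice, labelled Ghr deletion (deletion-labelled below), also carried ROSA26 Cre-ERT2 +/0, a tamoxifen-inducible Cre recombinase at a locus active in most cell types, so the deletion was not aimed at 1 cell type. Tamoxifen was given to every mouse (250 mg/kg daily over 5 days), and the gland was collected 1 month after dosing ended. The comparison asks how loss of the receptor changes expression in the gland.

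SnoRNAs guide the chemical modification of ribosomal RNA in the nucleolus. Box C/D RNAs (Snord) bind fibrillarin and direct methylation of the ribose, whereas box H/ACA RNAs (Snora) bind dyskerin and direct pseudouridylation. ScaRNAs use the same boxes to modify spliceosomal RNAs in Cajal bodies. A few snoRNAs, U3 (Rnu3) among them, are instead needed to cut the ribosomal RNA precursor. Most mammalian snoRNAs are released from introns of host genes, while U3 is transcribed from its own promoter.

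The sequences that the results turn on are those of U3, of the near-identical Snora73 pair, and of box C/D and Cajal body RNAs of different lengths. They are the GENCODE M21 transcripts on GRCm38, given 5′ to 3′ as the DNA letters of the RNA strand. U3 is annotated at 5 loci, and each locus has 2 entries that start at the same base and differ by 1 base at the 3′ end. The capital letter marks the base absent from the shorter entry. Rnu3a lies at chr10:40258467-40258680 (plus strand), and Rnu3b1 lies at chr11:87443237-87443452 (plus strand) in an intron of Tex14.
Rnu3a, 214-base entry: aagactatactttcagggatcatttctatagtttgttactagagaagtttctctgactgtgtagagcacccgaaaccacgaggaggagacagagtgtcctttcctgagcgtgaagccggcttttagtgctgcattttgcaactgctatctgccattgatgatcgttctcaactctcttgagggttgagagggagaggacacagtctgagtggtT
Rnu3b1, 216-base entry: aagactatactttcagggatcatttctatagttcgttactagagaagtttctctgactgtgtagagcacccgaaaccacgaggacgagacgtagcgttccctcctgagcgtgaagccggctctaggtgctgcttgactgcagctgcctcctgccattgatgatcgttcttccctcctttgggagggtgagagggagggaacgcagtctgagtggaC
These 2 sequences were identical at 184 of 216 aligned columns (85.2%). Rnu3b1, Rnu3b2, Rnu3b3 and Rnu3b4 have the same sequence, so reads cannot be told apart between these 4 copies.

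Snora73a (chr4:132352775-132352979, minus strand, overlapping an annotated exon of Snhg3) and Snora73b (chr4:132352322-132352526, minus strand, in an intron of the same gene) are shown because their levels had the same pattern. Capitals mark the 7 bases of 205 that differ (96.6% identity). Counted from the 5′ end of Snora73a, these are G3A, G54A, A111G, T164C, G203A, T204A and T205A.
Snora73a: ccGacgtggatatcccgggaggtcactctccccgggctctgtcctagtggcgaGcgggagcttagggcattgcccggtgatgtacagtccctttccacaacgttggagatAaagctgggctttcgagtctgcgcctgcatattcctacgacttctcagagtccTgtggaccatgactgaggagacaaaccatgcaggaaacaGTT
Snora73b: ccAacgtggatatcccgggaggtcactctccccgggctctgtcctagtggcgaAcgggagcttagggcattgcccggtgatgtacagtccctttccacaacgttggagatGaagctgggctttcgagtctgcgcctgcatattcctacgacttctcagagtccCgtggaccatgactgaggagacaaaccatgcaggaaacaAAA

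The remaining sequences show the size range, with the C box (TGATGA) and D box (CTGA) in capitals. Snord17 (chr2:144265979-144266216, minus strand) lies in an intron of Snx5. Snord15b (chr7:99479563-99479707) and Snord15a (chr7:99482785-99482932), both on the minus strand of Rps3, were 65.6% identical over 154 aligned columns. Snord33 (chr7:45126864-45126947, minus strand, in Rpl13a) stands for the short members. Scarna10 (chr6:125186359-125186683, minus strand, in Ncapd2) is 325 bases long, and its first 60 bases and bases 266 to 325 are given.
Snord17: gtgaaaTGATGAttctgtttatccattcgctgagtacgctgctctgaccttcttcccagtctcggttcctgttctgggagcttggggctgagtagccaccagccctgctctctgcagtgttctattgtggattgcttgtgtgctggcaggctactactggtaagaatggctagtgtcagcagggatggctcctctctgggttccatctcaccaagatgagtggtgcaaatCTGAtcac
Snord15b: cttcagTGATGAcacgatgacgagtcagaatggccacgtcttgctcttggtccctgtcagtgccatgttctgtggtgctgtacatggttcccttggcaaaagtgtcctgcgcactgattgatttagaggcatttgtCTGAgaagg
Snord15a: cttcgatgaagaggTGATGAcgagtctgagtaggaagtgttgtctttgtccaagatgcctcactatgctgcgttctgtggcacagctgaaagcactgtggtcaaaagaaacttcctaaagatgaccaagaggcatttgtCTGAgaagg
Snord33: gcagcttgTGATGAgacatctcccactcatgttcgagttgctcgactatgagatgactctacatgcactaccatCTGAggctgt
Scarna10, first 60 bases: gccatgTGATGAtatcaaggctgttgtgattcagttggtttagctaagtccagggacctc
Scarna10, bases 266 to 325: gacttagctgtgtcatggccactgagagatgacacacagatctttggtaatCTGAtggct
Searched on the RNA strand alone, the C box lay in the first 25 bases of 70 of 99 Snord members (70.7%) and the D box in the last 15 bases of 92 (92.9%). Both were present in 68 (68.7%). Of the 42 Snora members, 35 (83.3%) had the letters ACA 3 bases before the 3′ end, and 0 had the C box in that window. All 10 U3 entries had the D box letters near the 3′ end, and 4 of 9 Scarna members, Scarna10 among them, had both boxes.

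The libraries held 19517831 to 41553558 expected counts, and several of their features varied. Ghr itself was not lower in the deletion-labelled libraries, at 21.5 and 10.2 CPM (the count scaled to a common library total after TMM adjustment) against 10.1, 11.8 and 13.2 CPM in the controls. These counts cover the whole gene, so directions below are those of the labels. Of 6 growth hormone targets, Ghr included, 0 were called by edgeR or DESeq2 and 0 had an unadjusted edgeR p under 0.05. The tissue label was checked against 10 prostate luminal markers, of which 6 were highest in control replicate 2. Pbsn, the prostate secretory gene that encodes probasin, was at 11.1, 475 and 0.816 CPM in control replicates 1 to 3 and at 0.0454 and 8.76 CPM in Ghr deletion replicates 1 and 2. Hoxb13, a prostate transcription factor gene, was at 0 in control replicate 3 and Ghr deletion replicate 1 and at 7.71 CPM in control replicate 2. The 8 seminal vesicle genes took 37.5, 15.4 and 25.6% of the control libraries and 14.6 and 22.2% of the others. Single genes differed more than this sum, and DESeq2 called 5 of the 8 lower and edgeR 0. Over all tested genes, DESeq2 called 0.436%. Svs1 was at 32915, 22520 and 58.6 CPM in the controls, against 0.0454 and 7.90 CPM. For this gene control replicates 1 and 2 stood apart from the other 3 libraries. Svs2 and Pate4 of the same list were instead highest in control replicate 3, at 140510 and 33092 CPM, and lowest in control replicate 2. Control replicate 2 also stood apart in other short structured RNAs that are not among the 160, such as the signal recognition particle RNA Rn7s1 and the RNase P RNA Rpph1. They took 33.7% of its counts against 4.51 to 10.4% in the other 4 libraries. Its mean fragment, derived from the deposited effective lengths, was the shortest at 190.4 bases against 213.9 to 226.4 bases. The part of these features in the results below was not tested. Values without control replicate 2 are given beside some, not all, of the results in which it was highest. Without control replicates 1 and 2 the summed member level below differed by -0.24 in log2.

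Few members were seen, and those seen were mainly long. Of the 160 members, 64 had any count, 25 had counts in all 5 libraries and 32 had a total of at least 10 expected counts. The detected members were 19 of 99 Snord, 29 of 42 Snora, 6 of 9 Scarna and 10 of 10 Rnu3. The 89 members of 64 to 99 bases included 12 with a count (13.5%), and together these held 49.7 expected counts over 5 libraries. The highest of them was Snord21, in the Rpl5 gene, with 20.77 counts in total. Of the 44 members of 120 to 149 bases, 29 (65.9%) were detected. All 19 members of 180 bases or more were detected, and they held 97.7% of the members' 74957 counts.

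Length and total count rose together across the 160 genes (Spearman's rho 0.66, and 0.70 over the 64 detected). This is a description across genes that share the same libraries, and genes are not independent replicates. A count of 0 over the pooled 155300376 counts allows a level of up to 0.0193 CPM, counting error only, without TMM scaling. The 96 members with 0 counts were therefore below what these libraries show, and their level in the tissue is not known from them. RSEM gave an effective length (the modelled number of start positions for a fragment within the gene) of 0 to 96 to 105 members per library. Such a member could still hold counts, as Snord21 did with 20.77 in total.

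**Figure D1:**
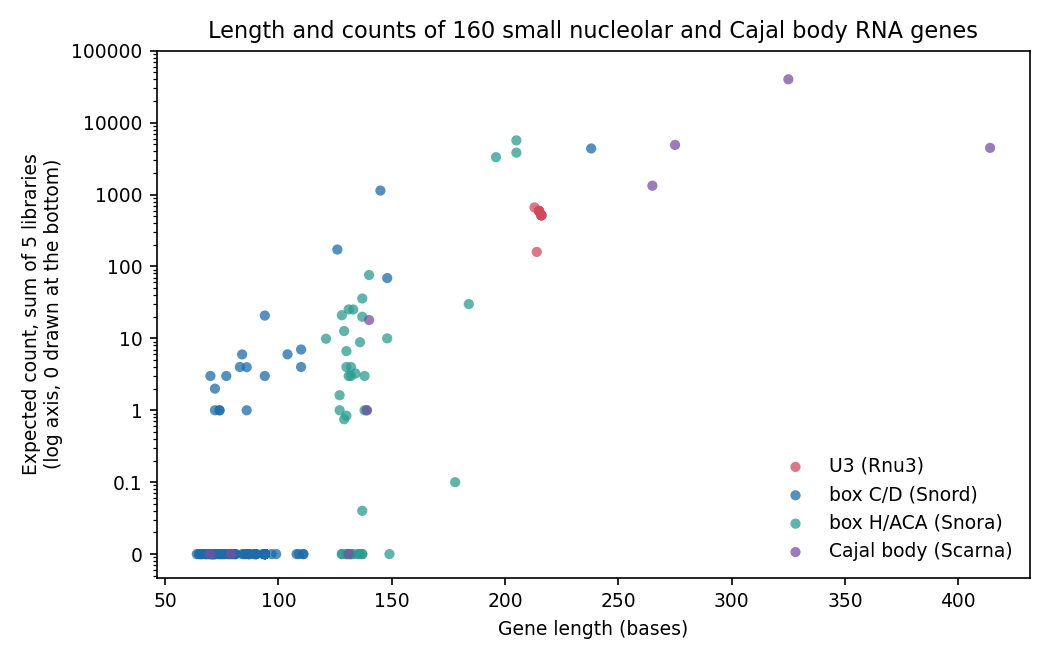
Gene length in bases (x axis) against the expected count summed over 5 libraries (y axis, log scale, 0 drawn at the bottom) for the 160 genes, coloured by class. Points at 0 lie mostly under 100 bases, and all 19 genes of 180 bases or more have counts.

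Well-known short members were among the 96. Snord118, the U8 RNA needed for processing of the large subunit RNA, had 0 counts. All 17 Snord116 genes, a tandem imprinted cluster of which 14 have the same sequence, had 0 counts, as did Snord64 and Snord107 of the same imprinted region. Scarna8, Scarna9 and Scarna17 also had 0 counts. Snord13, which assists acetylation of small subunit RNA, had 6 counts in total, 5 of them in control replicate 2.

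The annotation places 149 of the 160 members within 91 host genes, 84 in an intron and 65 overlapping an annotated exon. The hosts were well expressed: the 88 tested had a median of 73.7 CPM against 7.97 CPM over all tested genes. The 57 tested hosts of undetected members had a median of 79.7 CPM.

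Cajal body RNAs held most of the members' counts, a measure that also depends on length. Scarna10, known as U85, carries both kinds of box and guides modification of U5 spliceosomal RNA. It alone held 53.5% of all member counts, at 172, 136 and 315 CPM in the controls, against 275 and 207 CPM in the deletion-labelled libraries (208 ± 94.7 against 241 ± 48.4, SD, n = 3 and 2). Control replicate 3 was the highest library and control replicate 2 the lowest, so the groups overlapped. Scarna13, a box H/ACA Cajal body RNA in an intron of Snhg10, was at 25.9, 45.9 and 23.1 CPM in the controls, against 28.0 and 32.9 CPM in the others. Scarna2, which guides methylation of U2 spliceosomal RNA and has no host in the annotation, was at 24.2, 55.5 and 23.6 CPM against 19.0 and 27.3 CPM. Both were highest in control replicate 2, and the remaining control values lay near those of the deletion-labelled libraries. Scarna6, with both kinds of box and in an intron of Atg16l1, was at 4.01, 5.55 and 9.39 CPM against 7.92 and 9.59 CPM. It was not highest in control replicate 2. Scarna3a had 18 counts in total and was not tested.

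Levels between genes can be compared only per length, on the TPM scale, and only where effective length is not close to 0. Effective lengths of the 4 tested Scarna genes were between 60.76 and 225.14 bases. On that scale Scarna10 was the highest of the 4 in every library, from 180.6 TPM in control replicate 2 to 2812.78 TPM in Ghr deletion replicate 1. Scarna13 came next in every library, from 92.21 to 459.03 TPM. Scarna2 was above Scarna6 in control replicates 1 and 2 (48.05 against 24.31 TPM and 45.05 against 12.39 TPM) and below it in the other 3 libraries, so their order is not settled. Outside this class, Snora73a and Snora73b were above Scarna10 in control replicate 2 (511.54 and 342.94 against 180.6 TPM) and below it in every other library. For shorter members a small divisor can set the TPM. Snord15b, with an effective length of 2.88 bases in control replicate 1, was listed there at 766.67 TPM from 88.69 counts, whereas Scarna10 was listed at 586.73 TPM from 2793 counts. Snord22 was listed at 0 TPM in the 3 libraries where its effective length was 0, although it had counts in all 5.

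Among box H/ACA RNAs, Snora73a and Snora73b (the U17 or E1 RNAs, which act in processing of the small subunit RNA) were the most abundant by CPM. Snora73a was at 24.9, 92.0 and 28.5 CPM in the controls, against 25.4 and 26.8 CPM in the deletion-labelled libraries. Snora73b was at 16, 61.7 and 21.4 CPM against 15.5 and 18 CPM. Both were highest in control replicate 2, while the other 4 libraries lay close together. The count ratio of Snora73a to Snora73b stayed between 1.34 and 1.64 in the 5 libraries. With only 7 differing bases, reads from one can be assigned to the other.

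Snora74a, the U19 RNA, had the opposite pattern, at 18.3, 6.95 and 18.9 CPM in the controls, against 27.0 and 21.0 CPM in the others. Its lowest value was in control replicate 2, and both deletion-labelled libraries were above all controls. The next 3 Snora members were low. Snora7a, in Rpl32, was at 0.293, 0.538 and 0.428 CPM against 0.549 and 0.433 CPM. Snora23 and Snora70 had 30 and 35.86 counts in total and did not pass the filter on low counts.

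Among box C/D RNAs other than U3, Snord17 was the most abundant by CPM, at 19.8, 38.2 and 26.0 CPM in the controls, against 19.6 and 31.9 CPM in the deletion-labelled libraries. Snord15b, a guide for methylation of large subunit RNA, was at 5.47, 9.43 and 6.58 CPM against 6.36 and 7.18 CPM. Both were highest in control replicate 2, and the groups overlapped. Snord15a, in the same host as Snord15b, was at 0.123, 1.23 and 0.375 CPM against 0.318 and 0.303 CPM. Snord22, the U22 RNA needed for maturation of small subunit RNA and hosted by Snhg1, was at 0.058, 3.38 and 0.547 CPM against 0.403 and 1.58 CPM. Its spread within the controls exceeded any distance between the groups. Snord21 was at most 0.306 CPM and was not tested.

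**Figure D2:**
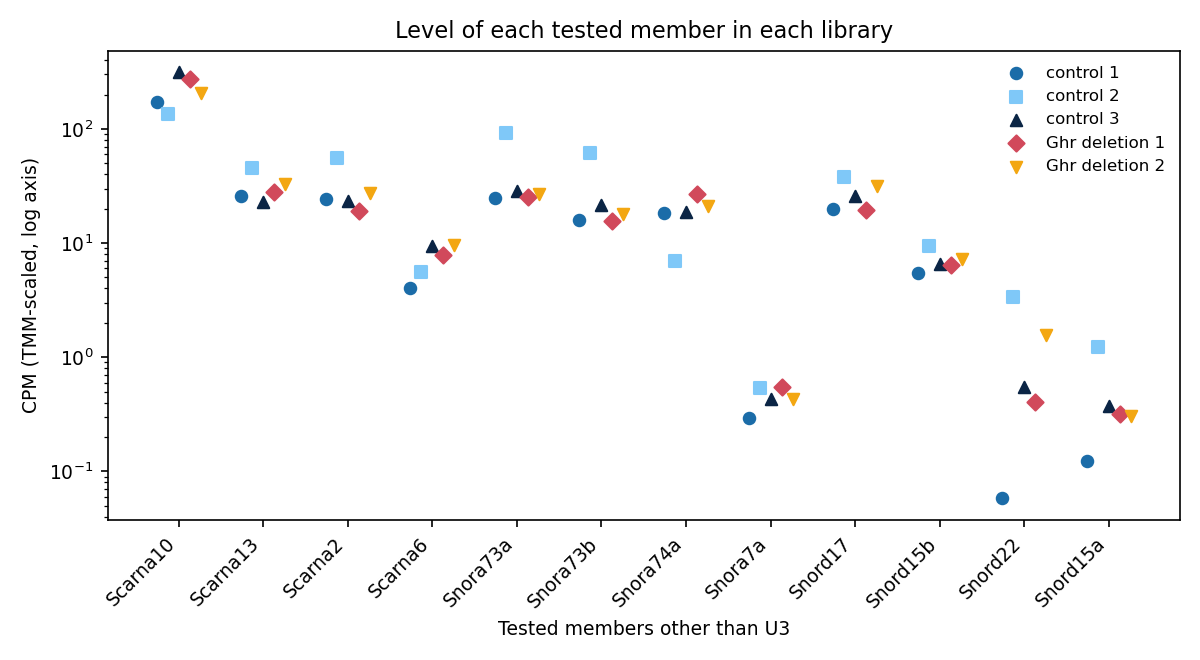
CPM (TMM-scaled, log axis) of the 12 tested members other than U3 in each library, with 1 symbol per library. Control replicate 2 is the highest symbol for Snora73a, Snora73b, Scarna2, Scarna13 and all 4 Snord members shown, and the lowest for Scarna10 and Snora74a.

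U3 varied widely between libraries. Summed over its 10 entries, it was at 9.75, 177.4 and 16.3 CPM in the controls, against 8.28 and 13.6 CPM in the deletion-labelled libraries (67.8 ± 95 against 10.9 ± 3.73, SD, n = 3 and 2). Control replicate 2 was far above the others, and the other 4 overlapped. The difference in mean log2 summed CPM was -1.52 (exact two-sided permutation p = 0.4, taken as the doubled one-sided p, of which 0.2 is the smallest that 3 against 2 libraries allow) and -0.25 without control replicate 2. Most of the signal came from Rnu3b, at 8.21, 155 and 12.9 CPM against 5.60 and 11.3 CPM. Rnu3a was at 1.54, 22.6 and 3.33 CPM against 2.68 and 2.22 CPM.

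The 2 entries of the Rnu3a locus, which differ by the final base printed above in capitals, took their counts in different libraries. The 213-base entry held 25, 439 and 151 expected counts in the controls, against 46.7 and 0 in Ghr deletion replicates 1 and 2. The 214-base entry held 0 in all 3 controls and 71.3 and 88.0 in the deletion-labelled libraries. The 214-base entry passed the filter on low counts only through the deletion-labelled libraries. DESeq2 called it and edgeR did not (adjusted p = 0.874), but no fold is given in the text, since its zeros lie beside counts at the 213-base entry of the same locus. Summed over both entries, the locus held 25, 439 and 151 counts against 118 and 88, which overlap. The summed log2 fold change was -1.89 (SE 1.15, edgeR adjusted p = 0.875), and the difference in mean log2 CPM was -1.0 with all libraries and 0.11 without control replicate 2. RSEM shares out reads that fit several entries, so which entry holds a read is uncertain.

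Rnu3b was split in a like manner, but without a break between groups. The longer entries held 79.5, 39.5 and 76.7% of Rnu3b counts in the controls, against 62.5 and 36.0% in the others. The 4 copies of each entry had equal counts in every library. The 216-base entries were at 6.53, 61.2 and 9.92 CPM against 3.50 and 4.08 CPM, summed over copies, so the groups did not overlap. Their log2 fold change was -2.76 (SE 1.10, 95% interval -5.46 to -0.06, edgeR adjusted p = 0.874) and -1.12 without control replicate 2. The 215-base entries had a log2 fold change of -2.81 (SE 1.85, edgeR adjusted p = 0.874), which was 0.93 without control replicate 2. Summed over all 8 entries, the value was -2.79 (SE 1.41, edgeR adjusted p = 0.875), and the difference in mean log2 CPM was -1.67 with all libraries and -0.37 without control replicate 2.

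**Figure D3:**
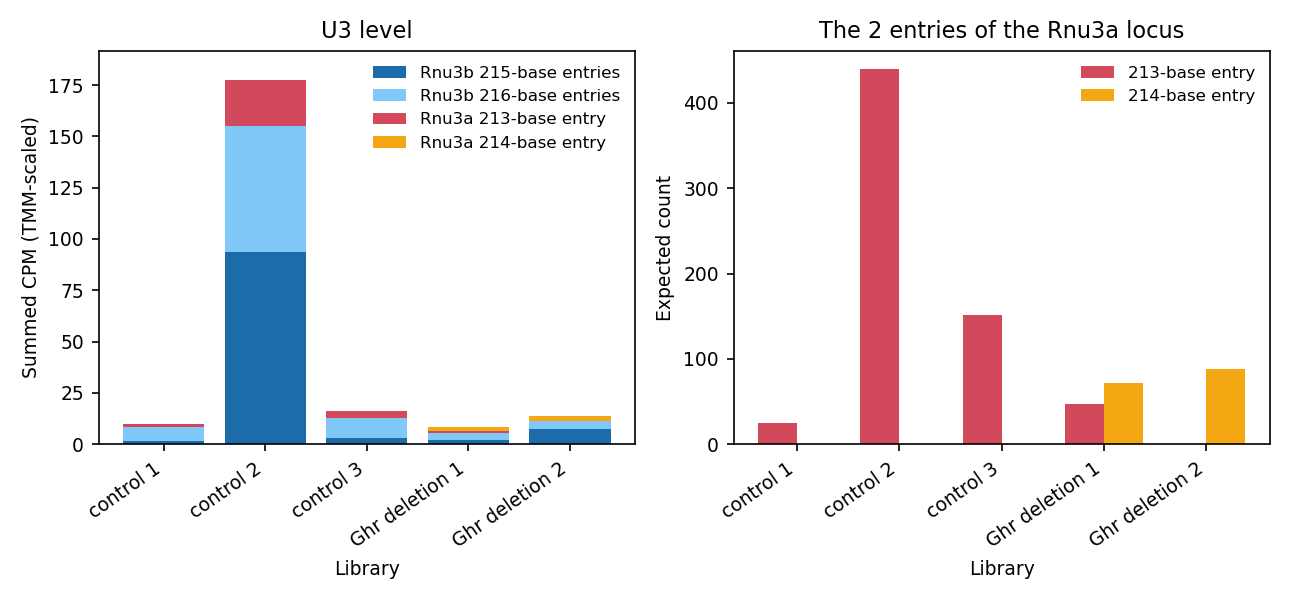
Left, summed U3 level (CPM, TMM-scaled, stacked bars by entry length) in each library, where control replicate 2 reaches 177.4 CPM and the other 4 stay at 16.3 CPM or below. Right, expected counts of the 213- and 214-base entries of the Rnu3a locus, where the 214-base entry has 0 counts in each control, and holds 71.3 and 88.0 in the deletion-labelled libraries.

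Levels of members and hosts were set side by side. Snhg3, the host of the Snora73 pair, was at 4.90, 2.00 and 5.71 CPM in the controls, against 5.55 and 4.59 CPM in the deletion-labelled libraries. It was lowest in control replicate 2, where its snoRNAs were highest. Snora73a per Snhg3 was 45.9 in control replicate 2 and 4.58 to 5.83 in the other 4 libraries. Snora73b per Snhg3 was 30.8 there and 2.79 to 3.92 elsewhere. Snord17 per Snx5 was 1.14 in that library and 0.318 to 0.517 in the others. Scarna10 per Ncapd2, in contrast, ranged from 12.6 to 19.0 over all 5 libraries, with control replicate 2 the lowest. Ncapd2 encodes a condensin subunit. Where a member overlaps a host exon, as Scarna10 does in Ncapd2 and Snora73a in Snhg3, some reads may belong to either.

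**Figure D4:**
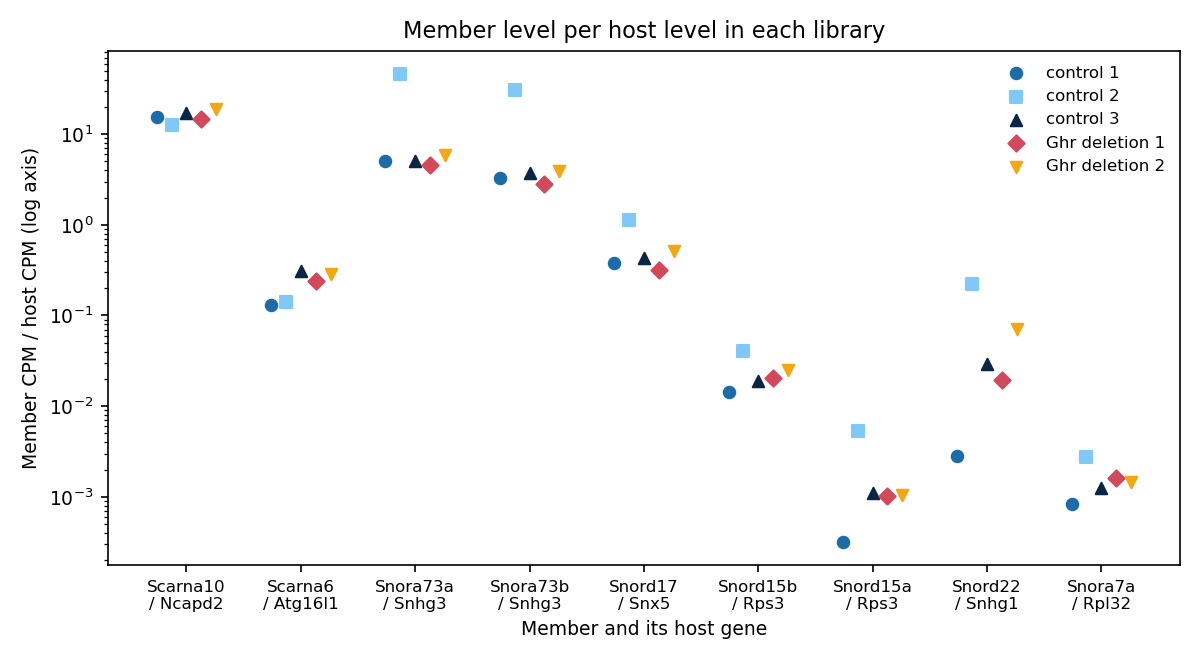
Member CPM divided by host CPM (log axis) for 9 tested members and their hosts, with 1 symbol per library. Snora73a per Snhg3 is 45.9 in control replicate 2 against 4.58 to 5.83 in the other 4 libraries, while Scarna10 per Ncapd2 stays between 12.6 and 19.0.

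The groups were then compared over all 18590 genes that passed the filter on low counts, 22 members among them. These 22 represent 16 distinct sequences, since the Rnu3b copies repeat, and passing the filter depended on the level in either group. By edgeR's quasi-likelihood test with Benjamini-Hochberg adjustment at 0.05, 0 of 22 members and 0.0% of all tested genes were called, and the smallest adjusted p among members was 0.874. At an unadjusted edgeR p under 0.05 there were 5 members, the Rnu3a 214-base entry (higher) and the 4 copies of the Rnu3b 216-base entry (lower). They make 1 higher and 1 lower of 16 distinct sequences, against 4.26% of all tested genes. The Rnu3a 214-base entry passed the filter only through the deletion-labelled libraries, so its p and its place in the counts below are no support for a difference. DESeq2 called 1 member, the Rnu3a 214-base entry described above, and 0.436% of all tested genes. Both deletion-labelled libraries were above all controls for 2 members, Snora74a and the Rnu3a 214-base entry, against 10.8% of all tested genes. On the CPM scale both were below all controls for the Rnu3a 213-base entry and the 4 copies of the Rnu3b 216-base entry. These make 2 of 16 distinct sequences, against 12.5% of all tested genes. Summed over entries, the groups overlapped for Rnu3a (1.54, 22.6 and 3.33 CPM against 2.68 and 2.22 CPM). They also overlapped for Rnu3b (8.21, 155 and 12.9 CPM against 5.60 and 11.3 CPM). The 2 lower sequences are therefore no support for a lower level of U3.

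Among the 12 tested members other than U3, 4 had a positive and 8 a negative log2 fold change, with a range of -0.98 to 0.70 and a median of -0.10. The median over all tested genes was -0.006. Snora73b had the lowest value, -0.98 (SE 0.61, edgeR adjusted p = 0.874), which was -0.16 without control replicate 2. Snora73a was at -0.89 (SE 0.61) and at -0.03 without that library. Snora74a had the highest value, 0.70 (SE 0.45, edgeR adjusted p = 0.874), which was 0.37 without it. Scarna10 was measured at 0.21 (SE 0.41, 95% interval -0.79 to 1.21), so changes of more than 1.21 in log2 in either direction lie outside its interval. Scarna6 was at 0.46 (SE 0.40), Scarna2 at -0.57 (SE 0.45) and Scarna13 at -0.06 (SE 0.34), which became -0.04 for Scarna2 and 0.31 for Scarna13 without control replicate 2. Snord15b had the smallest standard error, 0.31, with a value of -0.09, and Snord22 the largest, 1.37, with a value of -0.41. Without control replicate 2 these values were 0.16 for Snord15b and 1.51 for Snord22. Control replicate 2 was the highest library for 11 of the 16 distinct sequences, against 33.0% of all tested genes, and for 8 of 16 when levels were taken as shares of the library without TMM scaling.

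**Figure D5:**
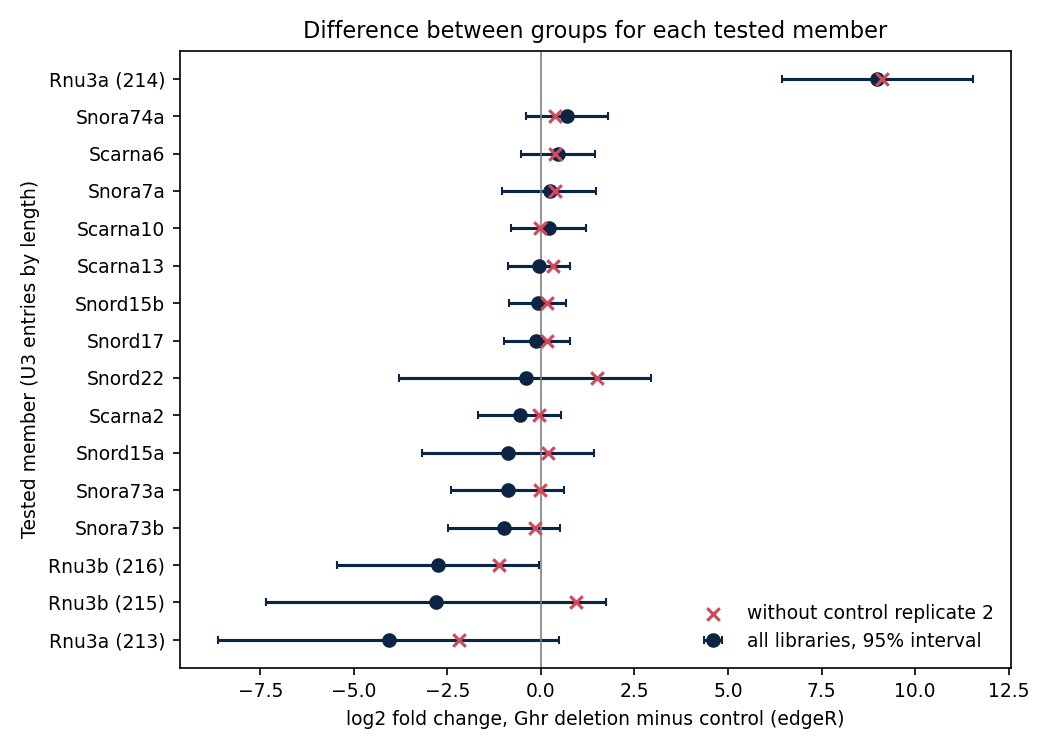
Log2 fold change (x axis, Ghr deletion minus control, edgeR) of the 16 distinct tested sequences with 95% intervals, and the value without control replicate 2 (crosses). The intervals of all members other than U3 include 0, and the crosses of Snora73a, Snora73b and Scarna2 lie near 0. The point for the Rnu3a 214-base entry depends on how its 0 counts in the controls are modelled, and its interval is not read as a result.

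Summed over all 160 members, the level was 322, 639 and 492 CPM in the controls, against 435 and 399 CPM in the deletion-labelled libraries (484 ± 159 against 417 ± 25.2, SD, n = 3 and 2). The difference in mean log2 level was -0.16 (exact two-sided permutation p = 0.8), and 0.06 without control replicate 2. By class it was 0.14 for Scarna, -0.38 for Snora and -0.10 for Snord, with exact two-sided permutation p-values of 0.6, 0.8 and 1.0. Without control replicate 2 these became 0.06, 0.07 and 0.18, so the signs for Snora and Snord turned. As shares of the library without TMM scaling, the differences were 0.46 over all members, 0.77 for Scarna, 0.25 for Snora and 0.52 for Snord. For U3 the difference was -0.90. The signs for Snora, Snord and the total thus also turned with the scaling. Under library size only, however, the median log2 fold change over all tested genes was itself 0.58, above the values for Snora, Snord and the total. In such bulk tissue, fewer cells of a type and less RNA per cell cannot be told apart.

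The proteins that assemble and process these RNAs had 0 calls by edgeR and by DESeq2, and in their 5 lists Rrp9 alone had an unadjusted edgeR p under 0.05. Over all tested genes, 4.26% had such a p. Of the 10 box C/D proteins, 0 were called. Rrp9, the U3-specific protein, was at 4.14, 7.45 and 4.52 CPM in the controls, against 2.22 and 3.15 CPM in the deletion-labelled libraries. It was thus lower without overlap, as were 12.5% of all tested genes. The log2 fold change of Rrp9 was -1.0 (SE 0.40, edgeR adjusted p = 0.874). Rrp9, like U3, was highest in control replicate 2. Ruvbl2, an assembly ATPase, was at -0.66 (SE 0.27). Of the 6 box H/ACA proteins, 0 were called, and Nhp2 and Dkc1 (dyskerin) were at -0.35 (SE 0.24) and 0.26 (SE 0.29). Of the 11 Cajal body and trafficking genes, 0 were called, and the cap hypermethylase gene Tgs1 was at 0.37 (SE 0.18) and the spliceosome recycling factor Sart3 at -0.60 (SE 0.30).

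The 7 genes of the nuclear exosome and 3′ trimming had 0 calls, with Zcchc8 at -0.34 (SE 0.27) and Exosc10 at -0.27 (SE 0.22). The 12 genes of ribosomal RNA transcription and processing had 0 calls, with the RNA polymerase I factor gene Ubtf at -0.48 (SE 0.23) and Nop14 at -0.17 (SE 0.21). Median log2 fold changes of these 5 lists were 0.04, 0.01, 0.02, -0.01 and 0.06 in the order given, and -0.11, -0.05, -0.14, -0.08 and -0.07 without control replicate 2. Without overlap between groups, 3, 1, 2, 0 and 1 of their genes were lower, against 12.5% of all tested genes. In the same order 1, 0, 1, 0 and 0 were higher, against 10.8%. Among the 18 tested noncoding hosts, 0 were called by either tool and 0 had an unadjusted edgeR p under 0.05, with Snhg8 at -0.66 (SE 0.29), Snhg6 at 0.34 (SE 0.28) and a list median of -0.10. Among 30 protein-coding hosts, 0 were called by edgeR, 1 (Ppan) had an unadjusted edgeR p under 0.05 and 1 (Eef2) was called by DESeq2. Ppan was at -1.12 (SE 0.45), and the list median was -0.09. Without control replicate 2 the list medians were -0.02 for the noncoding and -0.22 for the protein-coding hosts. Eef2, a translation elongation factor gene, was at 1006, 1083 and 993 CPM in the controls, against 654 and 612 CPM in the deletion-labelled libraries. It was thus lower without overlap, as were 12.5% of all tested genes. The log2 fold change of Eef2 was -0.70 (SE 0.29, edgeR adjusted p = 0.874), and its adjusted p by DESeq2 was 0.0136. Of the 30 protein-coding hosts, 7 were lower and 1 higher without overlap. Of the 18 noncoding hosts, 1 was lower and 2 were higher without overlap. Of the 88 tested hosts of the 160 members, edgeR called 0 and DESeq2 1 (Eef2), and at an unadjusted edgeR p under 0.05 there were 0 higher and 2 lower. Over all tested genes, DESeq2 called 0.436%, and 4.26% had an unadjusted edgeR p under 0.05.

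Of 10 tested short structured RNAs outside the member set, 7 were, like U3, highest in control replicate 2, and their median log2 fold change was -1.06, or -0.64 over the 9 tested without that library. By edgeR and DESeq2 0 were called, and 1 (Rpph1) had an unadjusted edgeR p under 0.05, against 4.26% of all tested genes. Rpph1 was at 154, 1262 and 200 CPM in the controls, against 84.9 and 38.6 CPM in the deletion-labelled libraries. Rmrp, the RNA of RNase MRP, was at 105, 394 and 104 CPM against 64.4 and 69.4 CPM. Both were highest in control replicate 2 and below every control in both deletion-labelled libraries. Lower without overlap were 5 of these 10 RNAs and 12.5% of all tested genes. Of 5 nuclear long RNAs, 4 were highest in control replicate 2, with a list median of -0.13, or 0.26 without it.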

How the data were processed

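Total RNA from flash-frozen tissue went into libraries by the TruSeq Stranded Total RNA kit, per the labels' protocols. Per the submitters' processing notes the tools were bcl2fastq 2.20.422, STAR 2.5.3a, RSEM 1.3.0, with GRCm38. For the annotation release and the strand setting: not given in the sources used here. RSEM gene tables, 1 a sample, were deposited by the authors, with expected counts, TPM, and, per the file headers, the length and effective length of each gene, where the deposited effective length is near 0 for short RNAs.

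Members, lists and tests were chosen with earlier results of these data known. Symbols matched 99.5% of identifiers, and coordinates and sequences are from GENCODE M21 (99.6% of identifiers). Expected counts were rounded, filtered with filterByExpr by group, TMM-scaled and tested by edgeR 4.0.16 (R 4.3.3, quasi-likelihood test) (18590 genes, Benjamini-Hochberg adjustment at 0.05). CPM divides unrounded counts by the TMM-scaled library total. A standard error is the log2 fold change over the square root of F, and intervals are 95%. A positive log2 fold change means higher in the deletion-labelled libraries. The labels give groups and replicate numbers, and p-values measure the spread between these 5 libraries.

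Named members are all detected Rnu3 entries, the 6 Snora, 6 Snord and 5 Scarna with the highest mean CPM, members with the smallest p among those whose groups do not overlap, and called members. Pathway, host and short RNA lists name the 2 genes with the smallest p. Rn7s1, Svs1, Pbsn, Hoxb13, Snord118, Scarna8, Scarna9, Scarna17, Snord33 and Ncapd2 were named for illustration, after their values were seen. The edgeR step was tested on simulated data. Alternatives were other scalings and filters, DESeq2 1.42.0, limma 3.58.1 (voom on counts, trend on log2(TPM + 1)), a replicate block and each library left out. An effective length offset, leaving out control replicates 1 and 2, and summing U3 copies were added after seeing the data.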

Additional observations from a re-analysis of the deposited data

How the results depend on the processing

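No alternative scaling or left-out library gave a called member. DESeq2 called 1 member and 81 genes in all, limma-trend on TPM 3 and 2294, and the fit without a low-count filter 0 members and 2 genes. With each library left out in turn, calls over all genes ran from 0 to 48, with 48 without control replicate 3. The replicate numbers do not pair the samples by the labels, and same-numbered deviations correlated at 0.28 and 0.30. Deviations of 2 libraries from their mean mirror each other, so control replicates 1 and 2 had -0.28 and -0.30 with the differently numbered library. Control replicate 3 had 0.07 and -0.07. These values cannot decide whether the numbers mark pairs. With the replicate number as a block, 1126 genes were called, with 5 members of 2 distinct sequences, the Rnu3a 214-base entry (edgeR adjusted p = 0.00273) and the 4 copies of the Rnu3b 216-base entry (0.0479), which had 0.874 without the block. That fit leaves 1 residual degree of freedom to estimate the spread. Control replicate 3, alone in its block, adds nothing to its group difference, so these calls are not read as results.

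Over all tested genes the median shifted to 0.58 under library size only and to 0.87 under TPM, and signs below should be read against these shifts. The median over the 22 tested members, U3 entries included, was -0.89 (0.18 without control replicate 2) and was 1.03 under TPM. These 22 count the equal copies of each Rnu3b entry separately, and over the 16 distinct sequences the main median was -0.26. The difference in summed level was 0.46 under library size only and 1.35 under TPM. With libraries left out it ran from -0.43 to 0.06 (0.06 without control replicate 2).

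Under TPM, values turned positive for the Rnu3b 215-base entries (0.56), Snora73a (1.00), Snora73b (0.90), Snord17 (1.5), Snord15b (1.57), Snord22 (2.27), Snord15a (1.27), Scarna13 (1.59) and Scarna2 (1.05). Library size only gave Snord17 0.50, Snord15b 0.55, Snord22 0.36, Scarna13 0.62 and Scarna2 0.12. Limma-voom gave Snord22 0.43 and Scarna13 0.02, and the effective length offset Snord17 0.04, Snord15b 0.08 and Scarna13 0.11.

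With libraries left out, control replicates 1 and 2 together included, values ran from -3.95 to 0.93 for the Rnu3b 215-base entries, -0.51 to 0.19 for Snord17, -0.24 to 0.16 for Snord15b, -1.68 to 1.51 for Snord22, -1.33 to 0.18 for Snord15a, -0.38 to 0.64 for Scarna10, -0.25 to 0.40 for Scarna13 and -0.10 to 0.86 for Scarna6. Without control replicates 1 and 2 the values were 0.63 for the Rnu3b 215-base entries, 0.04 for Snord15b, 0.85 for Snord22, -0.38 for Scarna10, 0.40 for Scarna13 and -0.10 for Scarna6. Without control replicate 2 alone, Scarna10 was at -0.02 and Scarna13 at 0.31. The cause was not tested. With 3 against 2 libraries and members of under 10 counts, small changes are not detectable at this depth.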

Other observations

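Ratios of counts between members of 1 library do not depend on scaling. Snora73a to Snora73b was 1.56, 1.49 and 1.34 in control replicates 1 to 3 and 1.64 and 1.49 in the deletion-labelled libraries. Snord15b to Snord15a, which share the host Rps3, was 44.3, 7.65 and 17.5 in the controls, against 20 and 23.7 in the others, where Snord15a had 2 to 24 counts per library. Scarna10 to Scarna2 was 7.12, 2.46 and 13.4 in the controls, against 14.5 and 7.57 in the others. Control replicate 2 had the lowest ratio of the latter pairs.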
